A study of Mus musculus with 18 samples.

Results

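The transcripts described here are those of 7 matrix metalloproteinases (Mmp8, Mmp9, Mmp12, Mmp13, Mmp14, Mmp19 and Mmp25), the tissue inhibitors of metalloproteinases Timp1 and Timp2, and the membrane protease Adam8. These 10 genes were taken by their symbols from the 54446 genes in the table, and all 10 were found. They were proposed as a set with earlier results of these data known. They were followed in RNA sequencing of mouse eosinophils that were cultured overnight with apoptotic cells (ACs) and with stimuli of Type 1 or Type 2 inflammation.

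All 18 libraries came from C57BL/6 eosinophils and all cultures held ACs. The Type 1 experiment had 4 groups of 3 libraries, which held ACs and no stimulus, E. coli, IFN-γ, or both IFN-γ and E. coli. For the last group the paper describes IFN-γ first and E. coli after it. The IL-4 experiment had 2 groups of 3 libraries, ACs with no stimulus and ACs with IL-4. Eosinophils without ACs are not analysed here, so no value below is an effect of ACs. Groups are named below by their stimulus, and ACs alone stands for the control group of the same experiment. By the study's methods, the eosinophils came from the peritoneal cavity of Il5Tg mice, whose Il5 transgene gives them far more eosinophils than normal mice have. The ACs were thymocytes killed with dexamethasone, and the eosinophils were purified again on Siglec-F beads after the culture. The study's methods call its replicates biological, while the labels do not tie these libraries to separate animals or cultures, so the tests measure the spread between these libraries. With 3 libraries against 3, no exact two-sided permutation test can give a p below 0.10, so the tests given are from limma, which shares its estimate of spread across all genes.

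Matrix metalloproteinases are zinc enzymes that are made as inactive precursors and cut collagens, elastin and other matrix proteins as well as cytokines and receptors. TIMPs bind their active sites and block them, and Timp2 also takes part in the activation of proMmp2 by Mmp14 at the cell surface. In eosinophils and other granulocytes these proteases are linked with passage through basement membranes and with tissue remodeling in allergic inflammation. RNA levels say nothing of precursor activation or of enzyme activity.

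Depth lay between 779421 and 7782072 reads on genes. In the IL-4 experiment both replicate 3 libraries were shallow, with 849705 reads for IL-4 + ACs and 779421 for ACs, and there 3 reads equal normalized counts of 15.4 and 16.1. The eosinophil markers Siglecf and Ccr3 were present in every group, with mean normalized counts of 1630 to 3237 and 2974 to 4498, whereas the granule peroxidase gene Epx had means of only 0.5 to 14.1. Of 10 thymocyte and T cell markers, the sum per library was 16.1 to 163. All 9 macrophage markers listed had group means above 10, and their sum per library was 12567 to 16309 with ACs, 4999 to 6455 with E. coli, 18598 to 27425 with IFN-γ and 5680 to 6367 with both stimuli. In the IL-4 experiment this sum was 18585 to 28003 with ACs and 14885 to 25237 with IL-4 + ACs. In bulk RNA, fewer cells of a type and less RNA per cell cannot be told apart. Among the 8 neutrophil markers, Mpo, Elane, Camp and Ltf had means of 0 to 6.1, Ly6g had means of 3.74 to 21.6 and Ngp of 1.44 to 11.2, while Retnlg had means of 923 to 3996 and Cxcr2 of 40.8 to 332.

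In GENCODE M21 on GRCm38, Mmp13 (ENSMUSG00000050578.10, 7272514 to 7283331), Mmp12 (ENSMUSG00000049723.14, 7344381 to 7369499) and Mmp8 (ENSMUSG00000005800.3, 7558456 to 7568485) lie in a run of 10 Mmp genes on chromosome 9 from 7272514 to 7699585. Of those 10 genes, 5 had at least 18 reads over all 18 libraries. Mmp9 (ENSMUSG00000017737.2, 164940780 to 164955850) lies on chromosome 2, Mmp19 (ENSMUSG00000025355.7, 128790910 to 128800824) on chromosome 10, Mmp14 (ENSMUSG00000000957.11, 54431612 to 54445364) on chromosome 14 and Mmp25 (ENSMUSG00000023903.8, 23628311 to 23645277) on chromosome 17. Adam8 (ENSMUSG00000025473.16, 139978932 to 139992562) lies on chromosome 7, Timp2 (ENSMUSG00000017466.9, 118301069 to 118355740) on chromosome 11 and Timp1 (ENSMUSG00000001131.11, 20870166 to 20874735) on chromosome X. Genes overlap Mmp12, Mmp19, Mmp25 and Timp1 on the opposite strand, Timp2 on the same strand (Cep295nl), and Adam8 on both. Whether the counting used strand is not given in the sources used here, so reads of these genes could in part belong to their neighbours.

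Promoter sequences, from 250 bases before to 50 bases after the start site, were taken from RefSeq on GRCm38.p6 and matched for 8 of the 10 genes. They are shown for Mmp13 and Mmp25, which rose with E. coli, and for Mmp8 and Timp2, which fell with it, because these transcripts carry the main contrasts below. Capitals mark matches, on either strand, to the AP-1 element TGANTCA, the interferon-regulatory-factor element AANNGAAA, the STAT elements TTCNNNGAA and TTCNNNNGAA, or the NF-κB element.
Mmp13, chr9:7272264-7272563, plus strand: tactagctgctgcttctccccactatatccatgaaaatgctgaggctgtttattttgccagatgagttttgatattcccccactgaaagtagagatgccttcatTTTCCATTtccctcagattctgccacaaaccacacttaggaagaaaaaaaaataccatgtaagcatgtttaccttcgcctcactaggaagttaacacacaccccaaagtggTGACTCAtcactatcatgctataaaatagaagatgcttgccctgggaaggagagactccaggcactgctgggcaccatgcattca
Mmp25, chr17:23645220-23645519, minus strand: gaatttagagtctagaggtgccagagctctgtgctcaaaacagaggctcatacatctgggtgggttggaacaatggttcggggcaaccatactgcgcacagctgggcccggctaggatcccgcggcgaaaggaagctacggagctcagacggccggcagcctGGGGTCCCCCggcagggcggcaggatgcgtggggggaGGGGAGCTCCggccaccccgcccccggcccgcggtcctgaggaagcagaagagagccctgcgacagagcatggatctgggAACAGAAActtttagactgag
Mmp8, chr9:7558179-7558478, plus strand: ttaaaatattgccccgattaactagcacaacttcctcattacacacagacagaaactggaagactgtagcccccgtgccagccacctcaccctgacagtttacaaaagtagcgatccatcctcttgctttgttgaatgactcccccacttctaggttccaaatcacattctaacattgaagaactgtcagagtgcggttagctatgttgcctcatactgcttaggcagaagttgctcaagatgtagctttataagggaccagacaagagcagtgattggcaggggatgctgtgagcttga
Timp2, chr11:118355362-118355661, minus strand: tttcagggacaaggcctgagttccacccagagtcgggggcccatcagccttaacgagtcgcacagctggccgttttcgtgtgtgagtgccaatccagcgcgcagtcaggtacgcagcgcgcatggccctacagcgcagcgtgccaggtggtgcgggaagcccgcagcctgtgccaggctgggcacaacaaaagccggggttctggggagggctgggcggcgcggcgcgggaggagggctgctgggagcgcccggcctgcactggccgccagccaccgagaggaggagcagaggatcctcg
Mmp13 held TGACTCA from 35 to 29 bases before the start, the AP-1 element, and an interferon-regulatory-factor match upstream of it. Mmp25 held 2 NF-κB matches and 1 interferon-regulatory-factor match. The windows of Mmp8 and Timp2 held no match to any of these motifs, nor did those of Timp1 and Adam8. Mmp14 held 1 interferon-regulatory-factor match (AAGAGAAA). Mmp12 had 2 windows, of which 1 held an AP-1 match and the other an interferon-regulatory-factor and an NF-κB match. Of 32851 mouse promoters of this length, 7.81% held the AP-1 letters, 23.9% the interferon-regulatory-factor letters, 8.30% and 6.95% the shorter and the longer STAT letters, and 8.46% the NF-κB element. No marked match overlaps another, and a match describes letters in the window and not a bound site.

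A transcript was called higher or lower at a Benjamini-Hochberg adjusted p under 0.05 over all genes tested in limma and a change of at least 1.5-fold. Of the 10 genes, 9 passed the filter (normalized count averaging 10 or more) in both experiments, and Mmp12 did not. With E. coli, 4 were higher than with ACs (Mmp13, Mmp14, Mmp25 and Timp1), where 5.05% of all genes tested were higher, and 3 were lower (Mmp8, Mmp19 and Timp2), where 5.25% of all genes were lower. With IFN-γ, 2 were higher (Mmp14 and Timp1) against 11.4% of all genes, and Mmp8 was lower against 9.96% of all genes. With both stimuli, 3 were higher (Mmp14, Mmp25 and Timp1) against 14.7% of all genes, and Timp2 was lower against 17.2%. With IL-4 none was higher, where 0.740% of all genes were, and Mmp8 was lower, where 0.347% of all genes were. At an unadjusted p under 0.05 limma had 4 of the 9 higher and 2 lower with IL-4, where 1030 of 10669 genes reached it in either direction. By adjusted p, edgeR and DESeq2 each called 1 higher, Mmp13 and Timp1 in turn, where they called 127 and 128 of all genes higher. The median log2 change over the 9 tested was 0.51 with E. coli, 0.31 with IFN-γ, 0.20 with the combination and 0.33 with IL-4, beside medians over all genes of -0.004, 0, -0.047 and -0.0084. The 3 Type 1 comparisons share their ACs libraries.

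**Figure D1:**
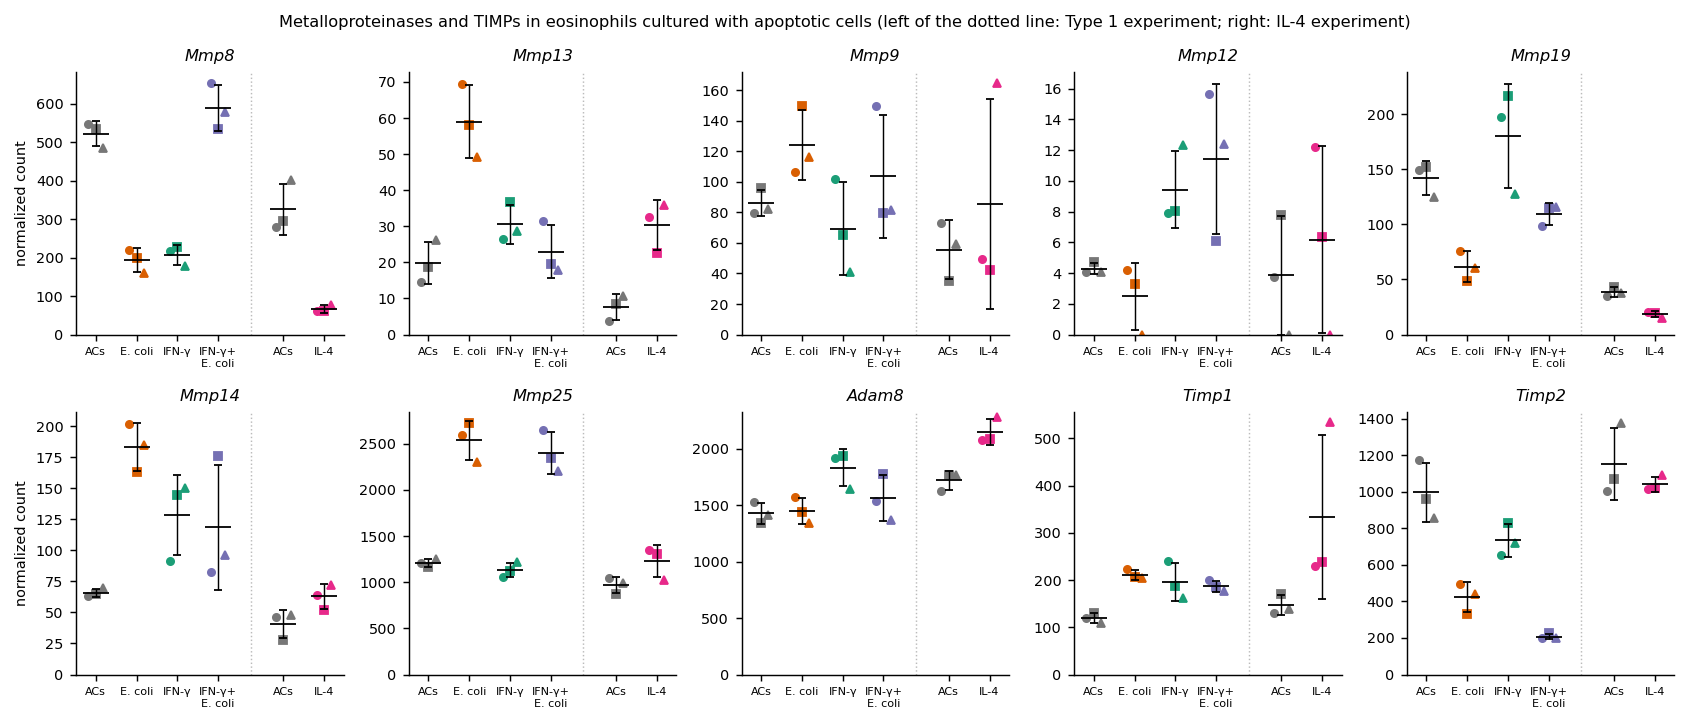
Normalized count (vertical axes, starting at 0) of the 10 genes in each library, by group; bars are mean ± SD of 3 libraries, and circles, squares and triangles are replicates 1, 2 and 3. In the IL-4 experiment Mmp8 stood at 280 to 402 with ACs and at 60.8 to 77.1 with IL-4, and in the Type 1 experiment Timp2 fell from 856 to 1174 with ACs to 197 to 225 with IFN-γ + E. coli + ACs.

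**Figure D2:**
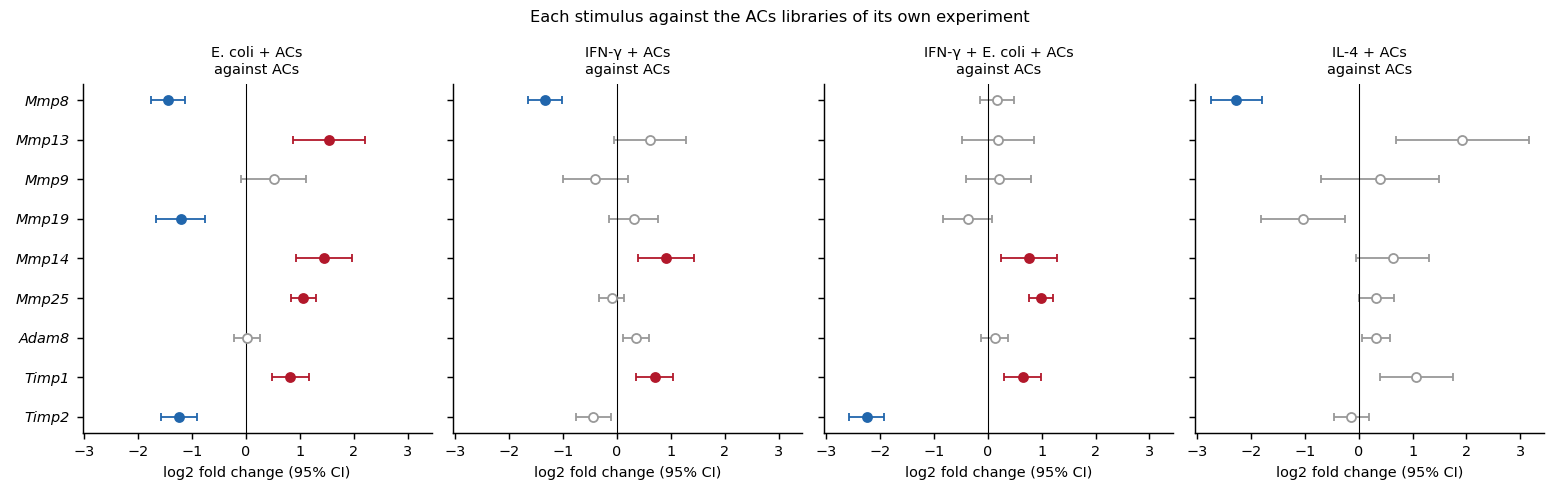
Log2 fold change with its 95% confidence interval from limma (horizontal axis) of the 9 genes tested, for each stimulus against the ACs libraries of its own experiment. Filled red and blue points were called higher and lower, open grey points were not called; Mmp8 was lower with E. coli, IFN-γ and IL-4 but at 0.17 with IFN-γ + E. coli.

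Mmp8 encodes neutrophil collagenase, which cuts fibrillar collagens. Its normalized count was 548, 534 and 485 with ACs in the Type 1 experiment, 220, 200 and 159 with E. coli, and 216, 228 and 179 with IFN-γ. Every library of either stimulus thus lay below every ACs library. With both stimuli the values were 653, 535 and 578, which overlapped those with ACs. The log2 fold change against ACs was -1.44 ± 0.15 (SE; limma adjusted p = 1.625e-06) with E. coli and -1.33 ± 0.15 (limma adjusted p = 1.428e-06) with IFN-γ. With the combination it was 0.17 (95% CI -0.14 to 0.48; limma adjusted p = 0.393). In the IL-4 experiment Mmp8 was at 280, 294 and 402 with ACs and at 60.8, 61.1 and 77.1 with IL-4. The ranges were far apart, and the mean with IL-4 was 20.4% of that with ACs, a log2 fold change of -2.27 ± 0.21 (limma adjusted p = 0.00065).

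Mmp13 encodes collagenase-3, the interstitial collagenase of rodents. It was at 14.6, 18.8 and 26.1 with ACs, 69.5, 58.1 and 49.3 with E. coli, 26.4, 36.7 and 28.7 with IFN-γ, and 31.4, 19.5 and 17.9 with both stimuli. The E. coli libraries stood above those of the other 3 groups, and the libraries with both stimuli overlapped those with ACs. The log2 fold change with E. coli was 1.55 ± 0.32 (limma adjusted p = 0.00243), while IFN-γ gave 0.62 (95% CI -0.04 to 1.29; adjusted p = 0.161) and the combination 0.20 (95% CI -0.47 to 0.86; adjusted p = 0.658). In the IL-4 experiment Mmp13 was at 3.76, 8.56 and 10.7 with ACs and 32.4, 22.7 and 36.0 with IL-4. Those ACs values rested on only 5, 11 and 2 reads, the last in the shallow library. Their mean of 7.68 was under the level of the filter, which Mmp13 passed here through the IL-4 libraries, with a mean of 30.4. The ranges were apart and the log2 difference was 1.93 (95% CI 0.70 to 3.15), with a limma adjusted p of 0.232 that missed the threshold. Without both shallow libraries it was 2.06 and passed (limma adjusted p = 0.0186), as it did with library weights (2.30), with edgeR (2.12) and with all 18 libraries in 1 fit (1.93). These were the only 4 of 17 settings that called it, the fit as designed and omissions of 1 library counted among them.

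Beside Mmp8, 2910 bases downstream on the same strand, lies Mmp27, a further matrix metalloproteinase that is no member of the set but the neighbour with reads in every library. Mmp27 was at 163, 155 and 148 with ACs, 148, 173 and 129 with E. coli, 427, 353 and 441 with IFN-γ and 813, 581 and 780 with both stimuli. It was therefore highest in the group with both stimuli. Mmp27 rose with IFN-γ by 1.38 ± 0.16 on the log2 scale (limma adjusted p = 1.979e-06), where Mmp8 fell, and rose to 466.5% of its ACs mean with both stimuli (limma adjusted p = 2.589e-09). With E. coli its log2 change was -0.06 and it was not called. Within the IL-4 experiment Mmp27 was at 76.7, 88.8 and 113 with ACs and 25.5, 21.6 and 66.8 with IL-4, ranges that were apart, with a log2 change of -1.43 that was not called. The remaining genes of the run, Mmp1b, Mmp3, Mmp1a, Mmp10, Mmp20 and Mmp7, had 0 to 30 reads over all 18 libraries.

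**Figure D3:**
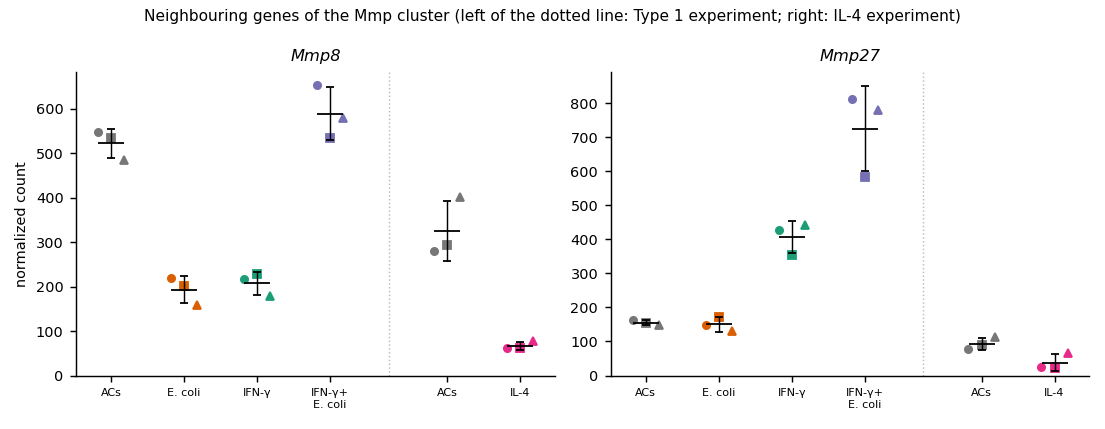
Normalized count (vertical axes) of the neighbouring genes Mmp8 and Mmp27 in each library, by group; bars are mean ± SD of 3 libraries and symbols are replicates. With IFN-γ + ACs, Mmp8 stood at 179 to 228, below its ACs libraries, and Mmp27 at 353 to 441, above its own.

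Mmp9 encodes gelatinase B, which cuts denatured collagen and basement-membrane collagen. Its values with ACs were 79.7, 95.7 and 82.4, with E. coli 106, 150 and 116, with IFN-γ 102, 65.3 and 41.0, and with both stimuli 150, 79.4 and 81.4. The E. coli libraries lay above the ACs libraries, but the log2 difference of 0.51 (95% CI -0.09 to 1.12) had a limma adjusted p of 0.280. With IFN-γ the log2 difference was -0.40 (adjusted p = 0.340) and with the combination 0.21 (adjusted p = 0.603). Within the IL-4 experiment Mmp9 was at 72.9, 35.0 and 59.0 with ACs and 49.3, 42.2 and 164 with IL-4. The high value is that of the shallow library, and the log2 difference of 0.39 (95% CI -0.71 to 1.48) became -0.15 without both shallow libraries. Mmp9 was called in none of the 8 comparisons made.

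Mmp12 encodes macrophage metalloelastase and was close to the limit of detection, with 0 to 21 reads per library. Its normalized counts were 4.07, 4.69 and 4.08 with ACs, 4.19, 3.27 and 0 with E. coli, 7.91, 8.02 and 12.3 with IFN-γ and 15.7, 6.11 and 12.4 with both stimuli. Both groups with IFN-γ lay above the ACs group, without a test since the gene did not pass the filter. With IL-4 it was at 12.2, 6.32 and 0, beside 3.76, 7.79 and 0 in the ACs libraries of that experiment. Each 0 there is a shallow library in which 3 reads would give 15.4 or 16.1.

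Mmp19 encodes a secreted protease that cuts several basement-membrane proteins. It was at 150, 152 and 125 with ACs, 76.2, 48.2 and 60.7 with E. coli, 198, 217 and 127 with IFN-γ and 98.4, 115 and 116 with both stimuli. All E. coli libraries were below the libraries of the other groups. Mmp19 fell with E. coli by 1.21 ± 0.22 on the log2 scale (limma adjusted p = 0.00071). With IFN-γ the log2 difference from ACs was 0.31 (adjusted p = 0.313) and with the combination -0.37 (95% CI -0.82 to 0.08; adjusted p = 0.189). With IL-4 it was at 20.3, 20.0 and 15.4, beside 35.3, 43.6 and 37.5 in its ACs libraries. These ranges did not overlap, and the log2 difference of -1.03 (95% CI -1.81 to -0.25) had a limma adjusted p of 0.366. It passed with library weights (-0.87, adjusted p = 0.034) and with all 18 libraries in 1 limma fit (-1.03, adjusted p = 0.0174). These were the only 2 of 17 settings that called it. The sum of the macrophage markers was also lower with E. coli than with ACs or IFN-γ. With both stimuli this sum was 5680 to 6367, which overlapped 4999 to 6455 with E. coli, while Mmp19 lay above every E. coli library. The part of the marker genes' cells in the Mmp19 values was not tested.

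Mmp14 encodes the membrane-type protease that cuts pericellular collagen and activates proMmp2. It was at 63.4, 64.8 and 69.3 with ACs, 202, 163 and 185 with E. coli, 91.0, 144 and 150 with IFN-γ and 82.7, 176 and 96.6 with both stimuli. Each of the 9 stimulated libraries lay above each ACs library. The log2 fold change was 1.46 ± 0.25 with E. coli (limma adjusted p = 0.00041), 0.92 ± 0.25 with IFN-γ (adjusted p = 0.00901) and 0.76 ± 0.25 with the combination (adjusted p = 0.0205). The last call was lost when ACs replicate 1 (0.73, limma adjusted p = 0.0578), ACs replicate 2 (0.75, adjusted p = 0.0536) or IFN-γ + E. coli replicate 2 (0.44, adjusted p = 0.127) was left out, and on a common upper quartile (0.62, adjusted p = 0.0589). Within the IL-4 experiment Mmp14 was at 46.6, 28.0 and 48.3 with ACs and 64.3, 52.2 and 72.0 with IL-4, ranges that were apart, with a log2 difference of 0.63 (95% CI -0.05 to 1.31) and a limma adjusted p of 0.548.

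Mmp25 encodes a lipid-anchored protease of leukocytes, also known as leukolysin. It was at 1206, 1161 and 1254 with ACs and at 1061, 1119 and 1217 with IFN-γ, which overlapped. With E. coli it was at 2593, 2720 and 2307, and with both stimuli at 2651, 2350 and 2202. The 6 libraries with E. coli thus stood at about the same level, well above the 6 without it. Mmp25 rose by 1.07 ± 0.11 on the log2 scale with E. coli (limma adjusted p = 1.266e-06) and by 0.99 ± 0.11 with the combination (limma adjusted p = 7.537e-07). With IFN-γ the log2 difference was -0.09 (95% CI -0.32 to 0.13; adjusted p = 0.569). Within the IL-4 experiment Mmp25 was at 1046, 877 and 992 with ACs and 1350, 1305 and 1028 with IL-4, with overlap and a log2 difference of 0.33 (limma adjusted p = 0.511). The 8 neutrophil markers summed to 1561 to 1846 per library with ACs, 1889 to 2306 with E. coli, 1879 to 2378 with IFN-γ and 1000 to 1256 with both stimuli. In the same order of groups, the means of Cxcr2 were 52.0, 332, 62.9 and 196, those of Ngp 1.44, 11.2, 4.33 and 6.35, those of Ly6g 3.74, 5.92, 21.6 and 17.8, and those of Retnlg 1665, 1683, 2030 and 923. Cxcr2 was thus higher in both groups with E. coli, as Mmp25 was, whereas Ly6g was higher in both with IFN-γ and Retnlg was lowest with both stimuli. Ngp was at 2.85, 13.4 and 2.76 with both stimuli, on 2, 11 and 2 reads, which overlapped 6.6, 2.29 and 4.1 with IFN-γ. In the IL-4 experiment Cxcr2 was at 28.6, 24.1 and 69.7 with ACs and 147, 135 and 108 with IL-4. These ranges were apart, whereas those of Mmp25 overlapped. Mpo and Elane had no reads with E. coli, IFN-γ or both. The part of such cells in the Mmp25 values was not tested.

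Adam8 encodes a membrane protease of leukocytes that sheds adhesion molecules and receptors. It was at 1524, 1341 and 1413 with ACs, 1572, 1436 and 1338 with E. coli, 1918, 1930 and 1644 with IFN-γ and 1538, 1779 and 1371 with both stimuli. Of the stimulated groups of the Type 1 experiment, only that with IFN-γ had all libraries above those with ACs. The log2 difference with IFN-γ was 0.36 (95% CI 0.11 to 0.61; limma adjusted p = 0.0298), under the 1.5-fold required. In the IL-4 experiment Adam8 was at 1623, 1769 and 1769 with ACs and 2077, 2084 and 2277 with IL-4, ranges that were apart, with a log2 difference of 0.32 (95% CI 0.06 to 0.57; limma adjusted p = 0.401). The confidence intervals of the 4 comparisons reached no further than 0.61 in either direction.

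Timp1 encodes a secreted inhibitor of most matrix metalloproteinases. It was at 119, 130 and 108 with ACs, 224, 206 and 204 with E. coli, 240, 187 and 162 with IFN-γ and 200, 184 and 177 with both stimuli. All 9 stimulated libraries lay above the ACs libraries. Timp1 rose by 0.82 ± 0.16 on the log2 scale with E. coli (limma adjusted p = 0.00181), by 0.70 ± 0.16 with IFN-γ (adjusted p = 0.0033) and by 0.65 ± 0.16 with the combination (adjusted p = 0.0041). The change fell under 1.5-fold for IFN-γ without IFN-γ replicate 1 (0.55), and for the combination without ACs replicate 3 (0.58) or on a common upper quartile (0.51). Within the IL-4 experiment Timp1 was at 131, 171 and 139 with ACs and at 230, 238 and 535 with IL-4. The ranges were apart and the highest value was the shallow library, with a log2 difference of 1.07 (95% CI 0.40 to 1.75) and a limma adjusted p of 0.227. Without both shallow libraries the log2 difference was 0.64 and passed (limma adjusted p = 0.0287). Of 18 settings, 5 called it.

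Timp2 encodes the inhibitor that also serves as a bridge between Mmp14 and proMmp2. It was at 1174, 962 and 856 with ACs, 498, 333 and 440 with E. coli, 654, 829 and 718 with IFN-γ and 201, 225 and 197 with both stimuli. The 4 groups did not overlap and stood in the order ACs, IFN-γ, E. coli, and both. Timp2 fell by 1.24 ± 0.16 on the log2 scale with E. coli (limma adjusted p = 1.75e-05) and by 2.25 ± 0.16 with the combination (limma adjusted p = 1.66e-09), to 20.8% of the ACs mean. With IFN-γ the log2 difference of -0.44 (limma adjusted p = 0.0451) was under the 1.5-fold required. With IL-4 Timp2 was at 1013, 1018 and 1090, which overlapped 1005, 1072 and 1378 with ACs, and the log2 difference was -0.13 (95% CI -0.46 to 0.19; adjusted p = 0.788).

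The macrophage marker sum was lower in both E. coli groups than with ACs, as Timp2 was, at 4999 to 6455 with E. coli and 5680 to 6367 with both stimuli. Those groups overlapped in the marker sum, whereas Timp2 was lower with both stimuli than with E. coli by 1.01 ± 0.16 on the log2 scale (limma adjusted p = 0.000106). With IFN-γ the marker sum was above that with ACs while every Timp2 library was below. The part of the marker genes' cells in the Timp2 values was not tested beyond this.

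**Figure D4:**
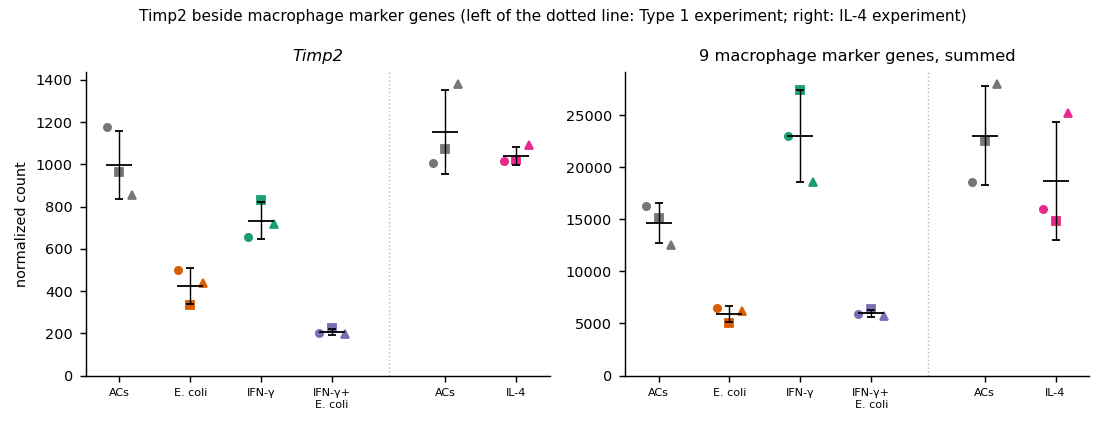
Normalized count of Timp2 and the summed normalized count of 9 macrophage marker genes (vertical axes) in each library, by group; bars are mean ± SD of 3 libraries and symbols are replicates. With IFN-γ + ACs the marker sum reached 18598 to 27425, above ACs, while Timp2 stood at 654 to 829, below ACs.

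Whether E. coli acted alike without and with IFN-γ was tested as an interaction on the 12 Type 1 libraries, which is the log2 effect of E. coli in IFN-γ treated cells minus that in cells without IFN-γ. Of the 9 genes tested, 1 was past the threshold upward (Mmp8), where 3.16% of all genes were, and 3 downward (Mmp13, Mmp14 and Timp1), where 4.28% were. For Mmp8 the E. coli effect was -1.44 without IFN-γ and 1.502 with it, opposite in sign, and the interaction was 2.94 ± 0.21 (SE; limma adjusted p = 1.027e-07). For Mmp13 the effects were 1.55 and -0.43 and the interaction -1.98 ± 0.45 (limma adjusted p = 0.0109). For Mmp14 they were 1.46 and -0.16, with an interaction of -1.62 ± 0.35 (limma adjusted p = 0.00759). For Timp1 they were 0.82 and -0.05, with an interaction of -0.88 ± 0.23 (limma adjusted p = 0.0251). The Timp1 interaction was lost with all 18 libraries in 1 limma fit (adjusted p = 0.140) and without ACs replicate 3 (adjusted p = 0.0771), E. coli replicate 1 (0.077) or 3 (0.0503), or IFN-γ replicate 1 (0.0649).

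For Mmp25 the E. coli effect was 1.07 without and 1.08 with IFN-γ, and the interaction was 0.01 (95% CI -0.31 to 0.33; limma adjusted p = 0.978). For Timp2 the effects were -1.24 and -1.81, with an interaction of -0.57 (95% CI -1.04 to -0.11; limma adjusted p = 0.128) that passed only when E. coli replicate 2 was left out (-0.73, adjusted p = 0.0498) among the omissions of 1 library. The interaction was 0.53 for Mmp19 (95% CI -0.11 to 1.17), 0.09 for Mmp9 (95% CI -0.77 to 0.94) and -0.25 for Adam8 (95% CI -0.60 to 0.10), and none was called by limma.

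**Figure D5:**
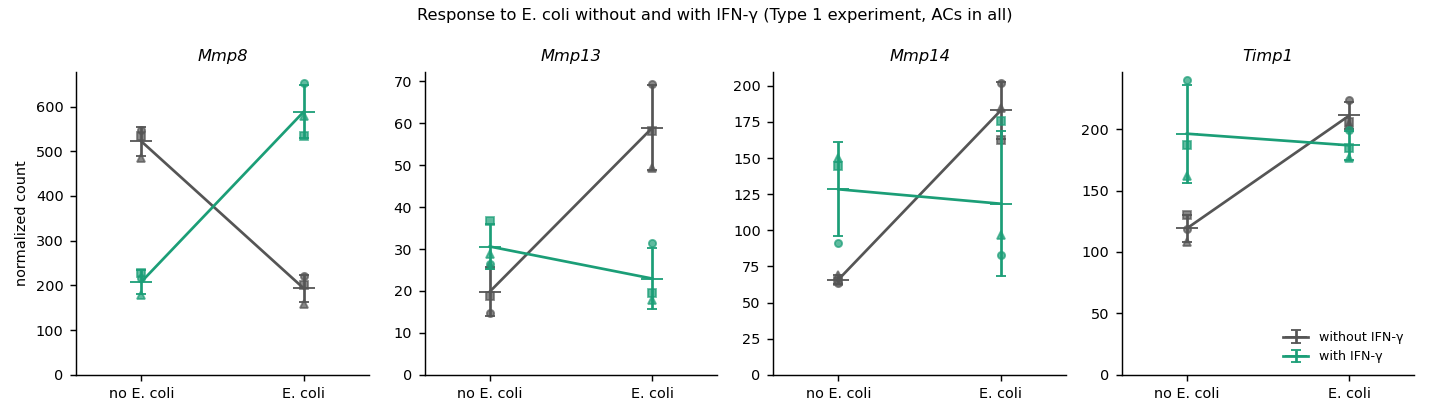
Normalized count (vertical axes, starting at 0) of Mmp8, Mmp13, Mmp14 and Timp1 without and with E. coli, in cells without IFN-γ (grey) and with IFN-γ (green), all with ACs; lines join means, bars are SD of 3 libraries and symbols are replicates. The lines cross: Mmp8 went from 522 to 193 without IFN-γ and from 208 to 589 with it.

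Set against IFN-γ, the combination had 2 of the 9 genes higher (Mmp8 and Mmp25), beside 5.96% of all genes, and 2 lower (Mmp19 and Timp2), beside 8.61%. Mmp8 was higher by 1.502 ± 0.15 (limma adjusted p = 1.412e-06) and Timp2 lower at -1.81 ± 0.16 (limma adjusted p = 3.477e-07). Mmp19 was lower at -0.68 ± 0.22 (limma adjusted p = 0.0325), a call that was lost without IFN-γ replicate 1 (-0.60, adjusted p = 0.111) or 2 (-0.53, adjusted p = 0.151) and without IFN-γ + E. coli replicate 1 (-0.61, adjusted p = 0.105). It was also lost in limma without a filter on low values (adjusted p = 0.0557) and with all 18 libraries in 1 fit (adjusted p = 0.0511). Mmp9, with a log2 difference of 0.60 (limma adjusted p = 0.156), passed without IFN-γ replicate 1 (0.92, adjusted p = 0.0344).

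Set against E. coli, the combination had 2 genes higher (Mmp8 and Mmp19), beside 9.79% of all genes, and 3 lower (Mmp13, Mmp14 and Timp2), beside 9.57%. Mmp8 was higher by 1.61 ± 0.15 (limma adjusted p = 1.975e-07) and Mmp19 by 0.84 ± 0.22 (limma adjusted p = 0.00788). Mmp13 was lower at -1.35 ± 0.32 (limma adjusted p = 0.00426) with ranges apart. Mmp14 was lower at -0.70 ± 0.25 (limma adjusted p = 0.0451) with overlapping ranges. This call was lost when E. coli replicate 1, 2 or 3 or IFN-γ + E. coli replicate 1 or 3 was left out (log2 differences of -0.63, -0.78, -0.69, -0.48 and -0.59). It was also lost with edgeR (-0.61, adjusted p = 0.0608) and with DESeq2 (-0.61, adjusted p = 0.0616). The same held in limma without a filter on low values (adjusted p = 0.0778) and with all 18 libraries in 1 fit (adjusted p = 0.0747). Of 17 settings, 8 called Mmp14 lower. Both comparisons share the libraries of the combination.

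The responses to IL-4 and to IFN-γ, each against the ACs libraries of its own experiment, were compared in a fit of all 18 libraries. None of the 9 genes was more raised by IL-4, beside 6.17% of all genes, and 2 were more lowered (Mmp8 and Mmp19), beside 8.09%. At an unadjusted p under 0.05 limma had 2 of the 9 in the former direction and 2 in the latter. Of all genes, 2795 of 10414 reached this in either direction. In the former direction edgeR and DESeq2 called 0. For Mmp8 the difference between the effects was -0.93 ± 0.24 on the log2 scale (limma adjusted p = 0.00971), since both stimuli lowered it and IL-4 did so further. For Mmp19 it was -1.34 ± 0.33 (limma adjusted p = 0.00759), between an effect of -1.03 with IL-4 and 0.31 with IFN-γ. For Mmp13 the difference was 1.30 (95% CI 0.19 to 2.42; limma adjusted p = 0.116), and it passed with library weights (1.63, adjusted p = 0.0102). For Mmp25 it was 0.42 (95% CI 0.07 to 0.78; limma adjusted p = 0.103). Stimulus and experiment cannot be told apart beyond what each experiment's own ACs libraries take out.

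The wider system of these proteases was followed in 5 lists of 69 further genes, which hold the other MMPs, other inhibitors, other ADAMs, ADAMTS proteases, and genes that activate, shed or clear them. In each experiment 19 of the 69 passed the filter. With E. coli 5 rose and 1 fell, with IFN-γ 8 rose, with both stimuli 12 rose and 1 fell, and with IL-4 1 fell, to be read against the shares of all genes given above. Where none was called by limma, 2 were lower with IFN-γ and 1 was higher with IL-4 at an unadjusted p under 0.05. In the other direction 12 were higher with IFN-γ and 5 lower with IL-4. Of all genes, in either direction, 3816 of 10166 reached this with IFN-γ and 1030 of 10669 with IL-4. The median log2 change of those tested was 0.47, 0.57, 0.84 and 0.08. Most calls were in the list on activation, shedding and clearance, of which 11 genes were tested.

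Of the plasminogen system, which activates several MMPs, Plaur, the urokinase receptor, rose on the log2 scale by 1.32 with E. coli, 0.76 with IFN-γ and 1.44 with both. Serpinb2, an inhibitor of plasminogen activators, rose by 1.53 with E. coli and 1.64 with both.

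Among genes that process or clear proteases, the protease-binding scavenger receptor Lrp1 fell by 1.00 with E. coli and rose by 0.79 with IFN-γ on the log2 scale. Its normalized count was 105 ± 14.1 (SD, n = 3) with ACs, 52.5 ± 10.8 with E. coli and 183 ± 27.3 with IFN-γ. Furin, which cuts the precursors of membrane-type MMPs, rose by 0.59 with E. coli and 0.87 with both stimuli. Bsg, known as an inducer of MMPs, rose by 0.76 with IFN-γ and 1.09 with both, and Cd44, a surface anchor for MMPs, by 1.28 with both. Lcn2 rose by 1.13 with E. coli, from 7395 ± 1353 to 16032 ± 1859. With IL-4 it fell by 3.09 ± 0.18 (SE; limma adjusted p = 9.56e-05), from 1791 ± 145 to 213 ± 51.4 (SD, n = 3).

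Of the shedding proteases, Adam17 rose by 0.65 with IFN-γ and 1.07 with both stimuli, and Rhbdf2, which carries Adam17 to the surface, by 0.74 and 1.47. The ranges of Rhbdf2 with IFN-γ and with ACs overlapped. Adam9, Adam10 and Adam19 rose with both stimuli by 0.77, 0.84 and 0.78. Adam33 rose by 1.55 with IFN-γ from a mean of 7.20, and Adamts10 fell by 2.76 with both from 40.3 to 9.50, where 1 library had no reads.

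Over the 12 Type 1 libraries, those genes averaging 50 or more normalized counts whose levels followed each member most closely are given with Pearson's r as a description, since the libraries fall into 4 groups that share their stimuli. They were Trim34a (0.950) and Klf10 (0.923) for Mmp8, and Ubqln4 (0.948), Eif3c (0.843) and Nek6 (0.824) for Mmp13. For Mmp9 they were Rcc2 (0.927), Dgcr2 (0.891) and Bid (0.866), and for Mmp19 Klf4 (0.951), Gdap2 (0.932) and Gpnmb (0.926). For Mmp14 they were Mafg (0.913), Dtx2 (0.896) and Atp6v1f (0.894), for Mmp25 Arl4c (0.979), Ebi3 (0.974) and Cxcl1 (0.973), and for Adam8 Tmem104 (0.931), Napa (0.917) and Fam129b (0.889). For Timp1 they were Ahr (0.951), Fam104a (0.930) and Eif2s1 (0.920), and for Timp2 Pepd (0.978) and Eps8 (0.963).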

How the data were processed

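The 18 libraries in 6 groups were prepared by CEL-Seq2, whose reads come from transcript 3' ends. The authors deposited a normalized signal per gene and library, the reads counted on a gene divided by a DESeq2 size factor. The submitters' processing notes name cutadapt 1.10, TopHat2 2.1.0, HTSeq 0.6.1, DESeq2 1.26.0 and GRCm38. The paper's methods describe a further pipeline, and which of them made this table, and whether molecular identifiers were used, is not given in the sources used here. Whole reads were recovered from the steps of the values, 100.0% of them within 0.01 of a whole number, so depths are known. Counting limits cover counting error only. ACs libraries were set to their experiment by the sample descriptions. Gene symbols were matched for 54409 identifiers from GENCODE M21.

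Comparisons were fitted with limma 3.58.1 (eBayes with trend) in R 4.3.3 on log2 of the normalized count plus 1, for genes averaging 10 or more in the fit (10166 genes in the Type 1 experiment, 10669 in the IL-4 experiment, 10414 over all 18 libraries). Fold changes on this scale understate the change of low genes. The alternatives were a pseudocount of 5, no filter on low values, a filter at 50, a replicate block, a common upper quartile, limma's array weights, whole reads in edgeR 4.0.16 or in DESeq2 1.42.0, 1 fit of all libraries, no fold threshold, both shallow libraries left out, and each library left out in turn. Tested on simulated data with 200 genes changed 4-fold, limma recovered 95% of them for E. coli + ACs, 86.5% for IL-4 + ACs and 81% for the interaction. The simulation gave all genes the same set spread, not that of these libraries. Smaller changes were not simulated, so these shares do not give the power for the changes above.

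All members are named, as are listed genes past the threshold in any stimulus against ACs and the 3 most correlated genes of each member, except that a few genes these rules pick are not reported here. Counts and sums over lists include them. The members and lists were chosen with earlier results of these data known. Python 3.11.15 with pandas 2.3.3 and numpy 2.4.6 was used for tables. Libraries without ACs and proteins are not analysed here.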

Additional observations from a re-analysis of the deposited data

Results flagged for a closer look

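Within the Type 1 experiment, the effect of E. coli in IFN-γ treated cells differed from that in cells without IFN-γ by limma's interaction term. The difference on the log2 scale was 2.94 for Mmp8, -1.98 for Mmp13, -1.62 for Mmp14 and -0.88 for Timp1. It was 0.88 for Mmp27, the neighbour of Mmp8 (limma adjusted p = 0.0204), and -1.39 for Lcn2 (adjusted p = 0.00314).

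Between the experiments, the effect of IL-4 differed from that of IFN-γ, each against its own ACs libraries. The difference on the log2 scale was -0.93 for Mmp8 and -1.34 for Mmp19. It was -2.81 for Mmp27 (limma adjusted p = 3.318e-05), -1.21 for Bsg (adjusted p = 0.00192), -1.38 for Lrp1 (adjusted p = 0.00761) and -3.30 for Lcn2 (adjusted p = 5.037e-08). IFN-γ raised Mmp27, Bsg and Lrp1, and the means of these genes with IL-4 + ACs were below those with ACs. Stimulus and experiment cannot be told apart in these values beyond the correction by each experiment's ACs libraries.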

How the results depend on the processing

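The 72 values of 9 genes in 8 comparisons were recomputed, which gave 720 values under other settings and 540 with 1 library left out. The filters, the fold threshold, the replicate block and the single fit of all libraries leave the log2 value itself unchanged. Under those settings no sign could change, so the counts of kept directions say little there. Of the 720 values, 688 kept their direction and their side of the threshold, 14 newly passed, 9 no longer passed and 9 changed sign. Of the 540 values, 503, 2, 17 and 18 did. None of the values that changed sign had been called. On a common upper quartile Adam8 went to -0.011 with E. coli, -0.014 with the combination, -0.0034 for the combination against E. coli and 0.045 for IL-4 against IFN-γ, and the Mmp25 interaction to -0.0063. With array weights Mmp9 went to -0.34 with IL-4 and -0.0695 for IL-4 against IFN-γ. Without both shallow libraries Mmp9 went to -0.15 with IL-4 and Timp1 to -0.059 for IL-4 against IFN-γ. With 1 library left out, the log2 differences ranged from -0.039 to 0.077 for Adam8 with E. coli, from -0.0903 to 0.36 for Mmp9 and from -0.042 to 0.40 for Mmp13 with the combination, and from -0.22 to 0.75 for Mmp9 and -0.23 to 0.0022 for Timp2 with IL-4. For the combination against IFN-γ they ranged from -0.48 to 0.056 for Mmp14 and from -0.18 to 0.10 for Timp1, for the interaction from -0.24 to 0.41 for Mmp9 and from -0.061 to 0.073 for Mmp25, and for IL-4 against IFN-γ from -0.025 to 0.58 for Timp1 and from -0.12 to 0.0035 for Adam8.

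The count of members called went from 3 to 5 with IFN-γ without a fold threshold, and from 4 to 2 with the combination on a common upper quartile. With IL-4 it went from 1 to 2 without a filter, with edgeR and with DESeq2, to 4 with array weights and with all 18 libraries, and to 3 without both shallow libraries. Over all genes, IL-4 gave 116 calls, against 208 without a filter, 745 with array weights, 212 with edgeR, 209 with DESeq2, 221 with all 18 libraries, 656 without both shallow libraries and 47 to 130 with 1 library left out. The interaction gave 756 calls, 495 with all 18 libraries and 400 to 1026 with 1 left out, and IL-4 against IFN-γ gave 1486 and, with array weights, 2423. On the recovered reads edgeR called 1227 genes with E. coli, 2227 with IFN-γ and 3276 with the combination, against 1047, 2173 and 3240 with limma. The cause of these moves was not tested.

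The common upper quartile moved the median of all genes to -0.18 for the combination against ACs and to -0.15 against E. coli. It moved the genes called higher and lower from 1494 and 1746 to 1155 and 2200 for the combination, from 1160 and 1013 to 966 and 1247 for IFN-γ, from 995 and 973 to 769 and 1352 for the combination against E. coli, and from 643 and 843 to 773 and 722 for IL-4 against IFN-γ. With the replicate block the IL-4 comparison gave 74 calls, and the count of members called was the same in each of the 8 comparisons. Samples with the same replicate number did not deviate together (correlations from -0.089 to 0.085 in the Type 1 experiment and from 0.001 to 0.021 in the IL-4 experiment). This cannot tell whether samples of 1 number share an animal or culture, since counting error may hide a shared deviation.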
